A study of Homo sapiens with 4 samples.

Results

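The epidermal growth factor receptor (EGFR) family and its ligands were examined as 10 genes, taken by symbol from the 33694 genes of each count table. The 7 ligand genes were *AREG*, *EREG*, *HBEGF*, *TGFA*, *BTC*, *EPGN* and *NRG1*, and the 3 receptor genes were *EGFR*, *ERBB2* and *ERBB3*. The cells were OVCA420, an established epithelial ovarian cancer line, profiled by droplet-based single-cell RNA-seq of transcript 3′ ends. Ctrl cells were left untreated, and the others received 10 ng/mL of TGF-β1, a cytokine that can induce the epithelial-mesenchymal transition, for 1 day, 3 days or 7 days. Each condition is 1 library of 1 cell line, treatment was timed so that all cells were collected together, and all cells were detached with trypsin. The libraries are called Ctrl, 1-day, 3-day and 7-day.

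The receptors of this family are single-pass membrane tyrosine kinases that pair with themselves or with each other when a ligand binds, and signal mainly through the RAS-MAPK and PI3K pathways. EGFR binds amphiregulin (AREG), epiregulin (EREG), heparin-binding EGF-like growth factor (HBEGF), transforming growth factor-α (TGFA), betacellulin (BTC) and epigen (EPGN). ERBB3, which has little kinase activity of its own, binds neuregulin-1 (NRG1), and ERBB2, which has no known soluble ligand, serves as a partner for the others. The ligands are made as membrane-bound precursors that surface proteases cut free. In ovarian carcinoma the family is known for autocrine growth signalling. RNA levels do not measure the cut, secreted or bound protein.

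Of the 10710 barcodes listed over all libraries, 3170 were analysed. They were the first of each library in barcode order, because each matrix as used here ends partway through its cells. Of these, 3144 cells passed the filters (933 Ctrl, 937 1-day, 705 3-day and 569 7-day cells). The retained cells held between 25382817 and 32949874 unique molecular identifiers (UMIs, each standing for 1 captured transcript) per library, with a median per cell between 30270 and 43553. The genes *PMEPA1*, *TGFBI*, *SMAD7* and *SKIL*, used to check the TGF-β1 response, were all higher than in Ctrl at each time, by at least 2-fold. For 9 of 10 epithelial markers UMIs were found in every library, and 7 reached 5 CPM (UMI counts scaled to 1000000 per library) in each. *EPCAM* was at 297 to 361 CPM. At 7 days *KRT7* was higher than in Ctrl by at least 2-fold (346 CPM in Ctrl and 881 at 7 days) and *KRT19* lower (1178 and 581). *MUC16* had 89 UMIs in Ctrl and 14, 4 and 5 in the treated libraries in time order. The ovarian lineage gene *WT1* was at 0 UMIs throughout and *PAX8* did not exceed 0.333 CPM. The summed fibroblast markers did not exceed 1.37 CPM, with *COL3A1* at 0 in all libraries. Endothelial markers summed to 5.40 CPM in Ctrl, of which *CDH5* made up 5.37, and at most 0.473 CPM after treatment. Leukocyte markers summed to 4.93, 5.98, 8.84 and 14.1 CPM in time order. The higher sums came from *CD68* (1.5 CPM in Ctrl and 6.2 at 7 days) and *CD79A* (2.8 and 7.9). *LYZ* went the other way, with 15 UMIs in Ctrl and 1 at 7 days. *PTPRC* had 2 UMIs in Ctrl and 0 after treatment, and *CD3E* had at most 1 UMI in any library. Pairs of libraries shared between 1 and 7 cell barcodes.

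A stretch of chromosome 4 (GENCODE 44, GRCh38) holds the ligand genes *EPGN* at chr4:74308470-74316789, *EREG* at chr4:74365145-74388749 and *AREG* at chr4:74445136-74455005 on the plus strand, and *BTC* at chr4:74744759-74794523 on the minus strand. Gaps of 48.4 kb, 56.4 kb and 290 kb separate them in that order. *HBEGF* is at chr5:140332843-140346603, *TGFA* at chr2:70447284-70554193, *EGFR* at chr7:55019017-55211628, *ERBB2* at chr17:39687914-39730426 and *ERBB3* at chr12:56076799-56103505. The 250 bases before the start of 3 ligand neighbours and of *EGFR* are printed because these neighbours differed widely in level and *EGFR* had the largest ratio to Ctrl of the members at 1 and 3 days. They are RefSeq sequences (GRCh38.p14), written 5′ to 3′ and ending 1 base before the annotated start. Capitals mark matches to 5 motifs searched on both strands, which were the cAMP response element TGACGTCA, the AP-1 element TGANTCA, the SMAD box CAGAC, the TEAD element GGAATG and the TATA element TATAAA.
AREG, chr4:74444886-74445135, plus strand: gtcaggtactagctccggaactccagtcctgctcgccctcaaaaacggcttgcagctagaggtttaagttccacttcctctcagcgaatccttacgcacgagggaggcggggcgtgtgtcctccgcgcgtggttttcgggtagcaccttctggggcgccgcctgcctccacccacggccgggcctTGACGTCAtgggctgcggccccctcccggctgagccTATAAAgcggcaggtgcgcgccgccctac
EREG, chr4:74364895-74365144, plus strand: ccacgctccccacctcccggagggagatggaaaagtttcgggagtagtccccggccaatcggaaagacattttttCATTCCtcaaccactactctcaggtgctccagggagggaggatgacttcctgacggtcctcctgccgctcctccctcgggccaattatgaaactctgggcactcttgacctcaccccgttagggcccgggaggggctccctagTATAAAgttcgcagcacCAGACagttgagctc
EPGN, chr4:74308220-74308469, plus strand: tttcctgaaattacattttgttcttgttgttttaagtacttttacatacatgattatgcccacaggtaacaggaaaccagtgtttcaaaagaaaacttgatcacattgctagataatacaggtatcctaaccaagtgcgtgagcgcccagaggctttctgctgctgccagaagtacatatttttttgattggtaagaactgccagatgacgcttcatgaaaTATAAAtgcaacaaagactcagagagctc
EGFR, chr7:55018767-55019016, plus strand: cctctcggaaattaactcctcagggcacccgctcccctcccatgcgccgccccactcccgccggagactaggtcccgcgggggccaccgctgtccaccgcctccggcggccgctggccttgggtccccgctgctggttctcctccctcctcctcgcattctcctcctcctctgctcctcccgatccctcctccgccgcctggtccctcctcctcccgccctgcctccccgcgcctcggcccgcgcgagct

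*AREG* had a cAMP response element 65 bases and a TATA element 29 bases before its start. *EREG* had a TATA element 32 bases, a SMAD box 15 bases and, on the minus strand, a TEAD element 175 bases before its start. *EPGN* had only a TATA element, 29 bases before its start, and no match to the 5 motifs was found in the printed *EGFR* window. The window before another RefSeq start of *EGFR*, which is not printed, held AP-1 elements 232 and 136 bases before that start, a SMAD box, a TEAD element and TATA elements. Of the other members with an entry, *ERBB2* had an AP-1 element 222 bases and *TGFA* a SMAD box 40 bases before its start. *HBEGF* and *BTC* also had an entry, with no match to the 5 motifs. Of 35116 promoter windows of the same length, 1.65% held the cAMP response element, 6.57% the AP-1 element, 38.0% the SMAD box, 11.9% the TEAD element and 10.7% the TATA element. None of the motifs overlapped in the printed windows. A match describes the letters only, and binding was not measured.

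A level is the CPM of a gene in the pooled UMIs of a library, given with an exact Poisson interval of 95%. With 1 library per condition there is no replicate check and no test, and all intervals cover counting error only. A ratio between 2 libraries is given as its log2 value with an exact 95% interval, and a difference is called past 2-fold at a log2 ratio of at least 1 or at most -1. A lower sum can come from fewer cells of a state or from less RNA per cell, so shares of cells are given as well. The cell cycle phases called from marker genes also differed between the libraries, with 25.4% of cells called G1 in Ctrl, 74.3% at 1 day, 50.5% at 3 days and 39.0% at 7 days (26.4%, 72.8%, 49.8% and 35.9% after thinning every cell to 18000 UMIs). Ratios within G1 cells are given where they change a call or a direction.

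The ligands *AREG*, *EREG*, *TGFA* and *BTC* were lower than Ctrl at 1 day and higher than Ctrl at 7 days. The 7-day directions of *EREG* and *BTC* depended on which cells were used. *HBEGF* and *NRG1* were not below Ctrl at any time over all cells. *AREG*, which encodes amphiregulin, stood at 375 CPM in Ctrl (368 to 382), 218 at 1 day (213 to 224), 394 at 3 days (388 to 401) and 1232 at 7 days (1218 to 1246). It was the ligand with the most UMIs in each library, from 7199 at 1 day to 31273 at 7 days. Against Ctrl its log2 ratio was -0.78 (-0.82 to -0.74) at 1 day, 0.073 (0.036 to 0.109) at 3 days and 1.72 (1.68 to 1.75) at 7 days. The 3-day value lay next to Ctrl, and its direction was not stable, with ratios of -0.05 and 0.18 in the first and second parts of the cells in barcode order. Most of the 7-day difference lay between the 3-day and 7-day libraries, whose log2 ratio was 1.64 (1.61 to 1.67).

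*EREG*, which encodes epiregulin and is the nearest of the members to *AREG*, was at 65.1 CPM in Ctrl (62.2 to 68.0), 22.7 at 1 day (21.1 to 24.4), 23.8 at 3 days (22.1 to 25.5) and 83.2 at 7 days (79.7 to 86.8). It was low at both early times, which did not differ beyond counting error. Over all cells it was highest at 7 days, although in S-phase cells it was then below Ctrl. The log2 ratio to Ctrl over all cells was -1.52 (-1.64 to -1.40) at 1 day, -1.45 (-1.58 to -1.33) at 3 days and 0.35 (0.26 to 0.44) at 7 days. Between 3 and 7 days it was 1.81 (1.69 to 1.93). At 3 days *AREG* was thus near its level in Ctrl, whereas *EREG* was not.

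*HBEGF*, which encodes a ligand that also binds heparan sulphate and ERBB4, was at 14.7 CPM in Ctrl (13.3 to 16.1), 14.8 at 1 day (13.6 to 16.2), 36.4 at 3 days (34.4 to 38.6) and 99.4 at 7 days (95.5 to 103). Ctrl and 1-day did not differ beyond counting error (log2 ratio 0.02, -0.17 to 0.21), although in G1 cells alone the ratio was -0.49. The log2 ratio to Ctrl was 1.31 (1.15 to 1.47) at 3 days and 2.76 (2.61 to 2.91) at 7 days, the largest of the ligands at 7 days. Within G1 cells the 3-day ratio was 0.89, which is under 2-fold, and the 7-day ratio was 2.48.

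*TGFA*, which encodes transforming growth factor-α, was at 53.4 CPM in Ctrl (50.8 to 56.1), 41.6 at 1 day (39.5 to 43.9), 77.3 at 3 days (74.2 to 80.4) and 152 at 7 days (147 to 157). Its level was lowest at 1 day and each later library was higher than the one before. Against Ctrl its log2 ratio was -0.36 (-0.46 to -0.25), 0.53 (0.44 to 0.62) and 1.51 (1.42 to 1.59) at 1, 3 and 7 days. *NRG1*, the neuregulin gene whose product binds ERBB3 and ERBB4 rather than EGFR, lies at chr8:31639222-32855666 and was at 42.3 CPM in Ctrl (40.0 to 44.7), 67.7 at 1 day (64.9 to 70.6), 111 at 3 days (107 to 115) and 123 at 7 days (119 to 127). Its log2 ratio to Ctrl was already 0.68 (0.58 to 0.78) at 1 day, then 1.39 (1.30 to 1.49) and 1.54 (1.44 to 1.63). Between 3 and 7 days it differed little, with a log2 ratio of 0.15 (0.08 to 0.21) that became -0.07 within G1 cells.

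The remaining 2 ligands were near the limit of these counts. *BTC*, which encodes betacellulin, had 72, 33, 66 and 87 UMIs in time order, or 2.40 CPM (1.88 to 3.02), 1.00 (0.689 to 1.41), 2.05 (1.59 to 2.61) and 3.43 (2.75 to 4.23). Ctrl and 3-day did not differ beyond counting error, and the direction of its 3-day and 7-day ratios to Ctrl depended on which cells were used. Its 3-day log2 ratio to Ctrl was -0.23 over all cells and 0.54 in G1 cells. *EPGN*, which encodes epigen, had 1 UMI at 1 day and 0 UMIs in the other libraries. For a count of 0 the floor of 3 counts equals 0.10 CPM in Ctrl, 0.0933 at 3 days and 0.118 at 7 days. The upper limits of the exact interval there were 0.123, 0.115 and 0.145 CPM. No ratio is given for *EPGN*.

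**Figure D1:**
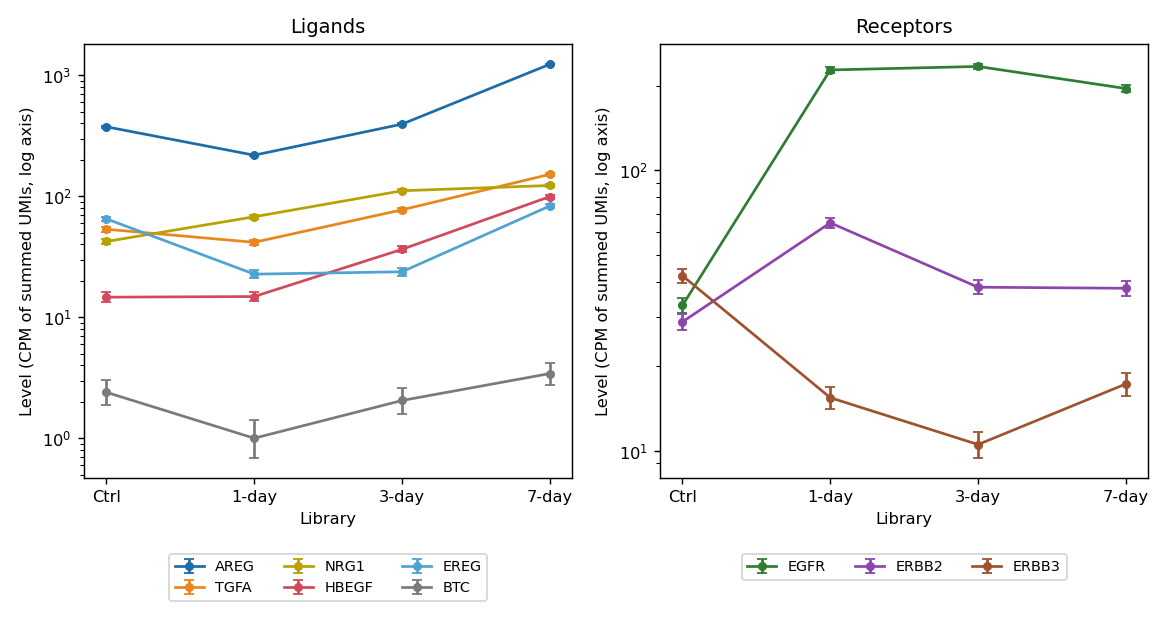
Levels of the ligands (left) and receptors (right) in the 4 libraries, in CPM of summed UMIs on a log axis, with exact 95% Poisson intervals as bars. *EPGN* is left out because it had 1 UMI in all. *AREG* lies above the other ligands throughout, with its highest level at 7 days, and *EGFR* lies at 196 to 235 CPM in the treated libraries against 33.0 in Ctrl.

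The receptors differed from Ctrl in different directions, and *EGFR* and *ERBB3* were past 2-fold from 1 day on. *EGFR*, which encodes the receptor shared by the other ligands, was at 33.0 CPM in Ctrl (30.9 to 35.1), 228 at 1 day (223 to 233), 235 at 3 days (229 to 240) and 196 at 7 days (190 to 201). Ctrl was far below the treated libraries, and the 1-day and 3-day levels did not differ beyond counting error. Against Ctrl its log2 ratio was 2.79 (2.69 to 2.89), 2.83 (2.73 to 2.93) and 2.57 (2.47 to 2.67) in time order, and that of 7-day to 3-day was -0.26 (-0.31 to -0.21). These differences kept a log2 ratio to Ctrl between 2.51 and 2.96 under every alternative run.

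*ERBB2*, which encodes the partner receptor without a ligand, was at 28.8 CPM in Ctrl (26.9 to 30.8), 64.9 at 1 day (62.2 to 67.8), 38.3 at 3 days (36.2 to 40.5) and 37.9 at 7 days (35.6 to 40.4). It was highest at 1 day, and the 3-day and 7-day levels did not differ beyond counting error. The log2 ratio to Ctrl was 1.17 (1.06 to 1.29) at 1 day, 0.41 (0.28 to 0.54) at 3 days and 0.40 (0.26 to 0.53) at 7 days. *ERBB3*, which encodes the neuregulin receptor, was at 42.0 CPM in Ctrl (39.8 to 44.4), 15.4 at 1 day (14.1 to 16.8), 10.5 at 3 days (9.43 to 11.7) and 17.3 at 7 days (15.7 to 19.0). It was below Ctrl in all treated libraries, and its 1-day and 7-day levels did not differ beyond counting error. The log2 ratio to Ctrl was -1.44 (-1.60 to -1.29), -2.0 (-2.18 to -1.82) and -1.28 (-1.44 to -1.12), and 7-day was above 3-day by 0.72 (0.51 to 0.93). *NRG1* was thus higher than in Ctrl at the times when its receptor *ERBB3* was lower.

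The make-up of the receptor UMIs differed accordingly. UMIs of this 3′ assay are not divided by gene length. The 3 receptors summed to 104 CPM in Ctrl, 308 at 1 day, 283 at 3 days and 251 at 7 days. In Ctrl 40.5% of these UMIs were from *ERBB3* and 31.8% from *EGFR*. From 1 day on *EGFR* made up 73.9%, 82.8% and 78.0% and *ERBB3* 5.01%, 3.71% and 6.89%. The 7 ligands summed to 553 CPM in Ctrl, 366 at 1 day, 645 at 3 days and 1693 at 7 days. *AREG* held the largest share at all times, with 67.8%, 59.6%, 61.2% and 72.8%. *NRG1* made up 7.65% of ligand UMIs in Ctrl, 18.5% at 1 day, 17.2% at 3 days and 7.26% at 7 days, and *EREG* 11.8%, 6.20%, 3.69% and 4.91%.

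To set these ratios against the other genes, the same 2-fold limit was applied to the 9659 genes with a mean of at least 5 CPM over the libraries, which included 8 of the 10 members but not *BTC* and *EPGN*. The comparisons with Ctrl share the Ctrl library and are not independent. At 1 day 2 of 10 members were at least 2-fold higher than in Ctrl (*EGFR* and *ERBB2*), beside 9.25% of all genes, and 3 were lower (*EREG*, *BTC* and *ERBB3*), beside 8.52%. Of the 8 members in the background 2 were lower, without *BTC*, whose 1-day log2 ratio in G1 cells was -0.56, under 2-fold. At 3 days 3 were higher than in Ctrl (*HBEGF*, *EGFR* and *NRG1*), beside 9.92% of genes, and 2 lower (*EREG* and *ERBB3*), beside 5.25%. At 7 days 5 were higher than in Ctrl (*AREG*, *HBEGF*, *TGFA*, *EGFR* and *NRG1*), beside 11.3% of genes, and 1 was lower (*ERBB3*), beside 4.91%. The median log2 ratio of the 8 members was -0.17, 0.47 and 1.52 at 1, 3 and 7 days, and that of all genes was -0.06, 0.04 and 0.10.

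From 1 to 3 days 2 members were higher past 2-fold (*HBEGF* and *BTC*), beside 4.78% of genes, and 0 were lower, beside 2.46%. *BTC* was not among the background genes, and it was under 2-fold in this step with TMM or median-of-ratios factors, with the mean over cells, and in the later cells by barcode order (the second part). From 3 to 7 days 3 were higher past 2-fold (*AREG*, *EREG* and *HBEGF*), beside 1.17% of genes, and 0 were lower, beside 0.911%. In the second part of the cells 6 were higher, with *TGFA*, *BTC* and *ERBB3* added. The share of all genes was not computed for that part, so this count has no background beside it. *BTC* had a log2 ratio of -0.24 in the first part. *TGFA* was just inside the limit in this last step with a log2 ratio of 0.97 (0.90 to 1.05). It was past the limit in cells thinned to 18000 UMIs and in G1 cells. Over the 8 members the median log2 ratio was 0.39 from 1 to 3 days and 0.85 from 3 to 7 days, where the medians of all genes were 0.12 and 0.06.

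**Figure D2:**
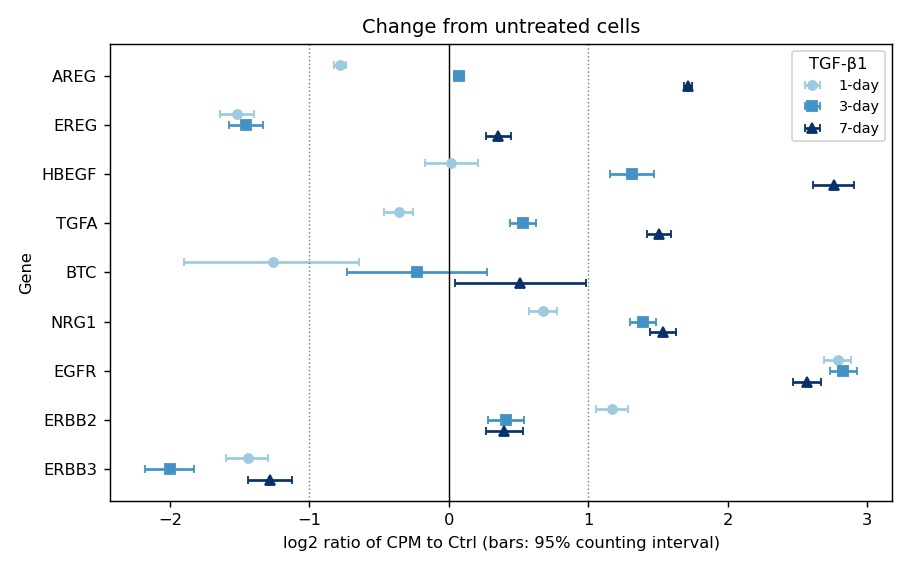
Log2 ratios of the members to Ctrl at 1, 3 and 7 days, with exact 95% intervals for counting error as bars and the 2-fold limits marked (*EPGN* left out). *EGFR* lies above 2.5 at all times and *ERBB3* below -1, while *AREG*, *EREG* and *TGFA* pass from below 0 at 1 day to above 0 at 7 days.

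Shares of cells with at least 1 UMI were compared at an equal depth of 18000 UMIs per cell, so that 174 shallower cells (89, 37, 28 and 20 in time order) did not enter. The libraries hold a single cell line, with no cell type that lacks these genes, and the contribution of free RNA to these shares was therefore not measured. *EGFR* UMIs were found in 35.8% of thinned Ctrl cells (302 of 844, exact interval 32.5% to 39.1%), 92.2% at 1 day, 95.3% at 3 days and 91.6% at 7 days. Without thinning the shares were 48.2%, 97.0%, 98.9% and 97.5%. Treated cells with *EGFR* therefore made up nearly the whole of each library, and the median per thinned cell was 0 UMIs in Ctrl and 3, 4 and 3 UMIs thereafter. In Ctrl 41 cells (4.86%) had 3 or more *EGFR* UMIs, and the highest had 13. *ERBB3* was found in 48.9%, 22.3%, 16.8% and 26.2% of thinned cells in time order (64.5%, 35.4%, 36.5% and 47.6% without thinning). For *ERBB2* the thinned shares were 39.7%, 66.0%, 44.5% and 48.5% (55.7%, 84.0%, 76.3% and 75.4% without thinning).

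Among the ligands, *AREG* was found in 94.1% of thinned Ctrl cells, 78.2% at 1 day, 91.4% at 3 days and 99.1% at 7 days (96.8%, 88.9%, 97.2% and 99.5% without thinning). Its median per thinned cell was 5, 2, 4 and 17 UMIs. *HBEGF* was found in 19.9%, 20.2%, 43.6% and 71.8% of thinned cells, and *TGFA* in 57.8%, 50.6%, 69.7% and 88.9%. Both were present in more cells at 7 days than at any other time. *EREG* was found in 54.9%, 26.8%, 26.6% and 58.8% of thinned cells, and *NRG1* in 47.3%, 58.3%, 77.8% and 80.0%. *BTC* remained at 4.38%, 1.56%, 4.43% and 4.37%, near the level of single UMIs. The share of cells with *EREG* at 7 days was close to that of Ctrl, with overlapping intervals (51.4% to 58.3% in Ctrl and 54.6% to 63.0% at 7 days). Without thinning the shares in time order were 29.5%, 32.6%, 64.8% and 88.4% for *HBEGF*, 74.2%, 69.7%, 89.4% and 96.7% for *TGFA*, 68.1%, 38.2%, 45.8% and 77.2% for *EREG*, 60.0%, 71.9%, 92.3% and 94.2% for *NRG1*, and 6.86%, 3.52%, 8.94% and 12.3% for *BTC*.

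**Figure D3:**
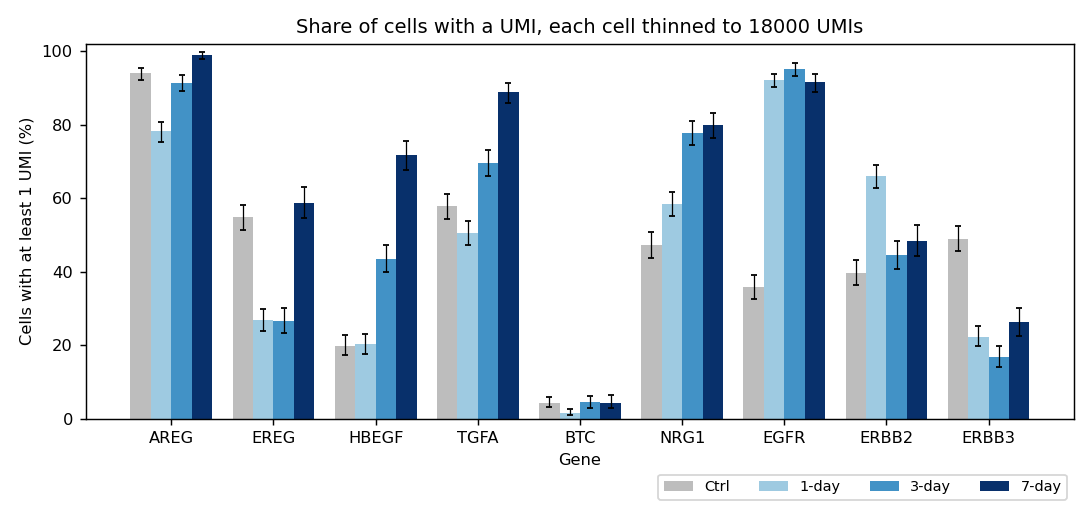
Percent of cells with at least 1 UMI of each member, after thinning each cell to 18000 UMIs, with exact 95% binomial intervals as bars (*EPGN* left out). *EGFR* is in 35.8% of Ctrl cells and in over 90% of treated cells, *ERBB3* is in fewer treated than Ctrl cells, and *HBEGF* is in 71.8% of 7-day cells.

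Cells of 1 library were not equal in these genes. The variance of thinned UMIs divided by their mean is 1 where cells differ only by random sampling. Where cells differ by more, this value also grows with the mean count. It therefore does not rank genes or libraries by relative spread. For *AREG* it was 7.20 in Ctrl, 6.95 at 1 day, 11.4 at 3 days and 13.7 at 7 days, the highest of the members in each library. At 7 days the median cell held 17 *AREG* UMIs and the highest 116. *EREG* reached 2.03, 1.97, 1.86 and 2.79 and *EGFR* 2.04, 2.42, 1.91 and 1.89. *ERBB2* and *ERBB3* stayed between 1.01 and 1.33. The 10 cells with the most *AREG* held 9.03%, 10.8%, 13.0% and 8.54% of its UMIs in time order, and leaving out the 10 top cells of each gene changed no call of a member past 2-fold.

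**Figure D4:**
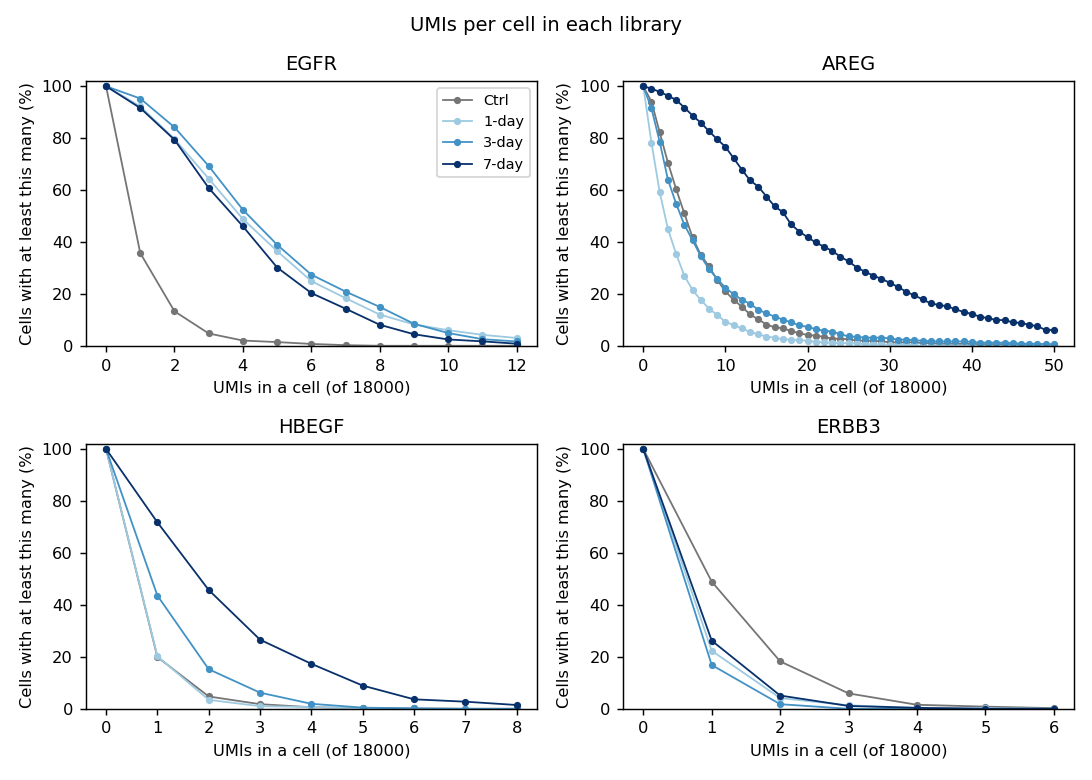
Percent of thinned cells that held at least the number of UMIs on the x axis, for *AREG*, *EGFR*, *HBEGF* and *ERBB3* in the 4 libraries, with x axes that end before the highest cells. The 7-day line for *AREG* lies above the others, with a median of 17 UMIs, and the Ctrl line for *EGFR* falls well below the treated lines.

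More ligands were found per cell at 7 days. A thinned cell held UMIs of a median of 3, 2, 3 and 4 of the 7 ligands in time order, and 5 or more were found in 4.74%, 1.89%, 9.45% and 33.7% of cells. Cells with no UMI of any of the 3 receptors made up 18.8% in Ctrl, 2.00% at 1 day, 2.07% at 3 days and 3.10% at 7 days. *EGFR* and *AREG* were found together in 33.6%, 71.7%, 87.0% and 90.9% of cells. The product of their separate shares was 33.7%, 72.1%, 87.1% and 90.8%. As *AREG* was in 78.2% or more of the cells of each library, the joint share could hardly depart from the product. *EGFR* and *HBEGF* were found together in 7.46%, 19.0%, 41.5% and 65.2% of cells, again near the product (7.12%, 18.6%, 41.5% and 65.8%). As *EGFR* was in 91.6% or more of the cells of each treated library, this joint share too could hardly depart from the product there. *ERBB3* and *NRG1* were found together in 20.4%, 12.1%, 13.1% and 20.6% of cells in time order, where the product was 23.1%, 13.0%, 13.1% and 21.0%. *NRG1* was found in 41.6% of cells with *ERBB3* and 52.7% of those without in Ctrl, in 54.2% and 59.5% at 1 day, in 78.1% and 77.8% at 3 days, and in 78.5% and 80.5% at 7 days.

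Co-expression was described by Pearson's r across the thinned cells of a library, for the 28 pairs of the 8 members found in at least 10% of cells of every library. Cells of 1 library share its depth and free RNA and are not replicates, and no p-value is given. The median r over pairs was 0.06, 0.03, 0.05 and 0.05 in Ctrl, 1-day, 3-day and 7-day. Sampling of few UMIs per cell draws r towards 0, so a low r does not show that a pair is unrelated. The highest r in each library was that of the neighbouring genes *AREG* and *EREG*, with 0.30, 0.31, 0.40 and 0.38. *AREG* with *HBEGF* had a mean r of 0.18 (0.07 to 0.24 over libraries) and *AREG* with *TGFA* of 0.16 (0.10 to 0.21). *EGFR* with *ERBB3* had a mean r of -0.09 (-0.14 to 0.0016) and *ERBB3* with *NRG1* of -0.07 (-0.14 to 0.03). Values this weak are not read as findings in sparse counts, for positive and negative pairs alike.

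**Figure D5:**
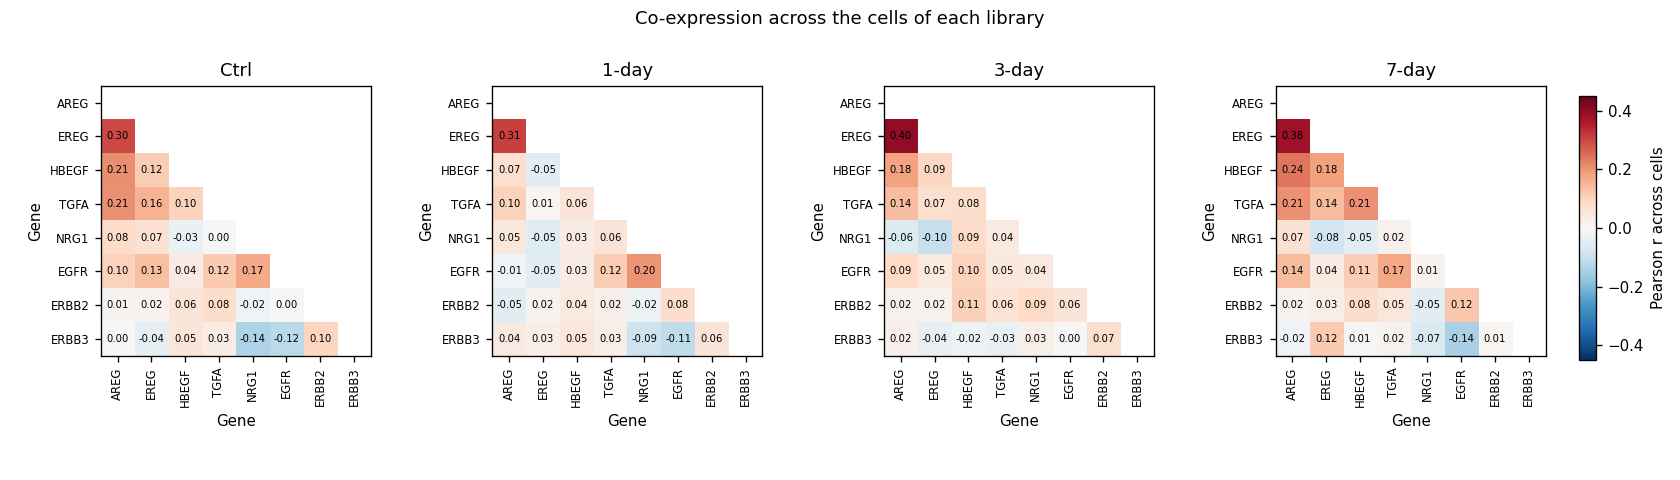
Pearson's r across cells between pairs of members, in each library, from log-normalised counts thinned to 18000 UMIs. The *AREG* and *EREG* pair has the strongest colour in every library (0.30 to 0.40), and most other pairs lie near 0.

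The gene most like *EGFR* among 7952 genes was *PMEPA1*, itself a check gene and a feedback inhibitor of TGF-β signalling, with r = 0.38, 0.37, 0.35 and 0.40 in time order. *ITGB4*, an integrin subunit of epithelial cells, was also among the 3 nearest, with a mean r of 0.32. In Ctrl the r of *EGFR* with *PMEPA1* was 0.38 without barcodes found in another library, 0.31 without the 10 cells with the most *EGFR*, and 0.50 in G1 cells. In the 1-day, 3-day and 7-day libraries the r in G1 cells was 0.34, 0.33 and 0.33, each below the value over all phases.

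For *AREG* the genes most alike were *FST* (follistatin, an activin antagonist; mean r 0.31), *CXCL8* (a neutrophil chemokine; 0.28) and *PHLDA1* (0.23). For *EREG* they were *CXCL8* (0.24), *CXCL1* (0.20) and *CDKN1A* (0.18), and those of *HBEGF* included *CXCL8* (0.22) and *COL17A1* (0.17). *CXCL8* thus stood among the 3 genes nearest to each of these 3 ligands. Its level was 87.3, 85.4, 157 and 487 CPM in time order, and that of *FST* was 112, 288, 536 and 981 CPM. The genes nearest to *TGFA* included *TMSB10* (0.20) and *DCBLD2* (0.20). The highest mean r of any gene outside the members was 0.17 for *NRG1* and *ERBB3* and 0.14 for *ERBB2*. The r of *NRG1* with *SPHK1* was 0.23 in Ctrl, 0.31 at 1 day, 0.07 at 3 days and 0.06 at 7 days. With *CAV1* it was 0.28, 0.26, 0.06 and 0.07. The nearest were *SPHK1*, *CAV1* and *CRCT1* to *NRG1*, *ATP2A2*, *JUP* and *LRRC8A* to *ERBB2*, and *FTH1*, *PTGR1* and *CYP4F3* to *ERBB3*.

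Levels within a library also differed by cell cycle phase. *HBEGF* was higher in G1 than in G2M cells in every library, at 23.5 against 10.3 CPM in Ctrl, 16.7 against 6.80 at 1 day, 43.4 against 28.5 at 3 days and 131 against 73.1 at 7 days. *AREG*, *EREG*, *TGFA*, *EGFR*, *ERBB2* and *ERBB3* had the same order in every library, not always beyond counting error. The order was not computed for all genes. *EGFR* was at 35.6 CPM in G1 and 28.2 in G2M in Ctrl, at 235 and 170 at 1 day, at 253 and 203 at 3 days, and at 219 and 162 at 7 days. Within every phase it was thus higher in the treated libraries than in Ctrl, where the highest phase was S at 37.2 CPM. *EREG* was at 70.9 CPM in G1, 74.9 in S and 54.3 in G2M in Ctrl, and at 119, 45.6 and 70.3 CPM at 7 days. Its 7-day level was thus above Ctrl in G1 and G2M cells but below Ctrl in S cells. *NRG1* did not keep 1 order of phases. Its G1 and G2M levels were 39.0 and 40.8 CPM in Ctrl and 74.0 and 40.8 at 1 day. They were 114 and 89.0 CPM at 3 days and 109 and 126 at 7 days. The part of the phase make-up in the library differences was not tested beyond the G1 values given.

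Other genes of the pathway were taken from lists chosen with earlier results of these data known, so their counts are description only. The counts at 7 days are to be read beside the 11.3% of all 9659 genes that were higher past 2-fold, the 4.91% that were lower and the all-gene median log2 ratio of 0.10. Of the 5 other family genes none passed the 5 CPM mean, and they are named here after their values were seen. *NRG4* was at 5.50 CPM in Ctrl and 0.512 at 7 days (13 UMIs), *EGF* was at 4.17 in Ctrl and 2.05 at 7 days, *NRG2* at 2.43 and 1.06, *ERBB4* at 0.533 and 0.749, and *NRG3* had 0 UMIs throughout. Of 7 proteases that free the ligands and their regulators, 6 passed the mean, and 2 of these were at least 2-fold higher than in Ctrl at 7 days (11.3% of all genes). These were *ADAM9* (50.5, 67.2, 98.1 and 113 CPM in time order) and *RHBDF2* (15.0, 16.7, 22.1 and 30.7), which encodes a partner of ADAM17. *ADAM17* itself was at 57.2 CPM in Ctrl and 65.6 at 7 days, and *ADAM15* at 55.4 and 31.6. Of 6 surface partners 4 passed, and 2 were higher past 2-fold at 7 days (11.3% of all genes). These were *CD44*, the hyaluronan receptor that can carry heparan sulphate (47.7, 41.9, 137 and 218 CPM), and *SDC4*, a heparan sulphate proteoglycan (39.7, 83.6, 86.5 and 107). *CD9*, a tetraspanin that associates with the HBEGF precursor, was at 48.3 and 90.4 CPM in Ctrl and at 7 days, and *SDC1* at 450 and 555.

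Of 15 adaptor and RAS-MAPK genes 14 passed the mean, and 2 were higher past 2-fold at 7 days, near the 11.3% of all genes. These were the kinase gene *MAP2K1* (43.1 and 116 CPM in Ctrl and at 7 days) and *SOS2* (2.50 and 5.44 CPM). *SOS2* passed the mean only through the treated libraries, where it was higher. *HRAS* (251 and 231 CPM) and *MAPK3* (33.9 and 29.3) had the lowest ratios among these 14. The median log2 ratio of the 14 at 7 days was 0.24, beside 0.10 for all genes. Of 18 inhibitors of the pathway 13 passed, with 1 higher and 1 lower at 7 days, near the shares of all genes (11.3% and 4.91%), and a median log2 ratio of 0.62 beside 0.10 for all genes. *DUSP4*, a phosphatase of ERK induced by it, was at 24.8 CPM in Ctrl, 8.16 at 1 day, 30.3 at 3 days and 55.3 at 7 days. *SPRY1*, a Sprouty inhibitor, was at 23.5, 1.67, 1.37 and 4.89 CPM, and it passed the mean only through Ctrl, where it was high. *SPRED1* was at 15.1 CPM in Ctrl and 28.9 at 7 days and *LRIG3* at 6.53 and 5.44. Of 9 genes that respond to ERK 8 passed, with 4 higher and 1 lower at 7 days, beside 11.3% and 4.91% of all genes, and a median log2 ratio of 1.23 beside 0.10. This list too was chosen with earlier results known, so the contrast with all genes is not a test. *PHLDA1* was at 40.5, 74.6, 124 and 236 CPM and *IER3* at 62.0, 136, 193 and 295, both higher in each later library. *ETV4* was at 30.8, 10.5, 21.5 and 39.2 CPM, lowest at 1 day and highest at 7 days. *EGR1*, an immediate-early gene, was at 15.8 CPM in Ctrl and 7.41 at 7 days. The cutting of ligands and the phosphorylation of receptors or ERK were not measured in these libraries.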

How the data were processed

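Per the labels, the authors detached OVCA420 cells with trypsin, prepared libraries with a 10x Genomics Single Cell 3′ kit and deposited raw counts of UMIs per gene and cell. The submitters' processing notes name Cell Ranger 2.0.1 and GRCh38. The matrices as used here end partway through the cells, so the first 941 Ctrl, 945 1-day, 712 3-day and 572 7-day barcodes were used, and sums are part of each library's depth. Cells with more than 200 genes and at most 20% mitochondrial UMIs were retained. Scrublet (scanpy 1.11.5) marked 33 cells (1.05%) as doublets, which were kept.

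UMIs were summed per library and scaled to CPM, with exact 95% Poisson, conditional binomial (ratios) and Clopper-Pearson (shares) intervals. A mean of at least 5 CPM defined the background genes. A floor of 3 counts was used for genes at 0. Values per cell were thinned to 18000 UMIs and log-normalised to 10000. Phases used the lists of Seurat 5.3.0. Steps were tested on simulated data. Library sums there were drawn as Poisson counts, so that test does not cover differences between cells beyond random sampling. Python 3.11.15 and R 4.3.3 were used, and edgeR 4.0.16 gave TMM factors only.

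The genes named are all members, the 2 highest and 2 lowest of each companion list by 7-day log2 ratio (mean of at least 5 CPM), the check genes, and the 3 genes of highest mean r with each member. Not every gene so chosen is reported here. The members and lists were chosen with earlier results of these data known, and the motifs after the levels had been seen. RefSeq promoter entries were used for 8 members. Alternatives were other scalings, mitochondrial limits and low-level filters, doublets or top cells left out, thinned cells, G1 cells, means over cells and parts of the cells in barcode order.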

Additional observations from a re-analysis of the deposited data

Results flagged for a closer look

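The ligands *AREG*, *EREG*, *TGFA* and *BTC* differed from Ctrl in opposite directions at different times. The log2 ratio of *AREG* was -0.78 at 1 day, 0.073 at 3 days and 1.72 at 7 days. That of *EREG* was -1.52 at 1 day and -1.45 at 3 days, and 0.35 at 7 days over all cells, although in S-phase cells the 7-day level was below Ctrl. That of *TGFA* was -0.36 at 1 day, 0.53 at 3 days and 1.51 at 7 days, and that of *BTC* was -1.26 at 1 day and 0.51 at 7 days. In the first part of the cells in barcode order the 7-day ratio of *BTC* was -0.15 and the 3-day ratio of *AREG* -0.05. Each direction rests on 1 library per time and on the same Ctrl library, and the difference between the times was not tested.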

How the results depend on the processing

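Of 495 alternative values of member log2 ratios, 400 moved by less than their counting interval, 95 moved by more and 0 ratios past 2-fold changed sign. Of 110 alternative counts of members past 2-fold, 105 stayed within 1.5 times. From 1 to 3 days the count of higher members was 2, and 1 with median-of-ratios factors, TMM factors, the mean over cells and the second part of the cells, which kept *HBEGF*. From 3 to 7 days it was 3, and 6 in the second part of the cells, which added *TGFA*, *BTC* and *ERBB3*. The share of all genes was not computed for that part. *TGFA* was also past 2-fold in this step in cells thinned to 18000 UMIs. In G1 cells the 3-day ratio of *HBEGF* to Ctrl was 0.89, under 2-fold. *BTC* was -0.56 at 1 day in G1 cells, and at 7 days 1.21 in G1 cells and -0.15 in the first part. In G1 cells the 3-day to 1-day ratio of *AREG* was 1.01 and the 7-day to 3-day ratio of *TGFA* 1.07. The cause was not tested. TMM moved the median log2 ratio of all genes by 0.10 at 1 day. The settings for *EGFR* with *PMEPA1* were chosen after seeing the data. No paired analysis was possible because there is 1 library per condition, and no replicate could be left out. Depth limits *BTC* and *EPGN*.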
